A study of Rattus norvegicus with 6 samples.

Results

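The genes for the proteins of the cytosolic ribosome were compared between mammospheres of rats treated with human chorionic gonadotropin (hCG) and of control rats. Members were the probe sets that the platform annotation gives to a single gene whose symbol starts with Rpl or Rps and a number, or is Rplp0, Rplp1, Rplp2 or Rpsa. Rps6k genes, which encode kinases, and pseudogenes were left out, and the brightest probe set by mean over all 6 arrays stood for its gene. This gave 48 genes of the 14217 that the annotation names singly, 33 of the large subunit and 15 of the small. Rplp1, Rplp2, Rpl10, Rpl10a, Rpl38, Rps14, Rps19, Rps25 and Rps27a are among the ribosomal protein genes without such a probe set. The members are thus a part of the cytosolic ribosome, not all of it. Of the 48, 6 are paralogs of a standard ribosomal protein gene. They are the genes whose symbol ends in l or l1 after its number, and Rps4y2, which was added by name. After the dimmest 40% of probe sets were left out, 45 members remained among 10424 genes tested. The 3 below that filter, at a log2 level of 2.67, were Rpl30 and the paralogs Rpl39l1 and Rpl3l, and they were not tested.

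Mammospheres are spheres of mammary cells that form in floating culture, where cells cannot attach. Female Sprague Dawley rats received recombinant hCG by intraperitoneal injection, at 100 IU per day for 21 days from 55 days of age, or phosphate buffered saline alone over the same days, with 3 animals per group in the design. Inguinal glands, numbered 4 and 5, were removed 21 days after the last injection, and epithelium-enriched cells of both groups were grown for 7 days in medium with EGF, basic FGF and heparin. RNA of the spheres was amplified in a two-cycle procedure and hybridised to Affymetrix 3' arrays, 3 for each group, numbered 5, 6 and 7. The question was which genes differed in spheres grown long after the hormone had been withdrawn; here it is asked of the ribosome and of its large against its small subunit.

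Ribosomal proteins assemble with ribosomal RNA in the nucleolus into a small subunit, which reads the messenger RNA, and a large subunit, which joins the amino acids. Cells make the proteins of both subunits in matched amounts, and their mRNAs are among the most abundant of a growing cell. Most of these mRNAs begin with a run of pyrimidines, the terminal oligopyrimidine (TOP) tract, through which mTORC1 and the RNA-binding protein Larp1 control their translation, and the oncogenic transcription factor Myc is known to raise the transcription of ribosomal protein and ribosome assembly genes.

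The sequence around the annotated start is shown because a pyrimidine tract there is common among the members. Each line below gives 15 bases before and 15 bases from the start of the gene in the RefSeq promoter windows of rat assembly GRCr8, read 5' to 3' on the gene's strand, with the longest run of at least 5 pyrimidines in capitals. The first 4 are large subunit genes and the next 4 small subunit genes, those of smallest p among members that have a window and are not paralogs; the last 4 are the tested paralogs.
Rpl39 (chrX:121195882-121195911, minus strand): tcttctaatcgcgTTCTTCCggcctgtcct
Rpl24 (chr11:58128391-58128420, minus strand): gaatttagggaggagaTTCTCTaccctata
Rpl34 (chr2:221962269-221962298, minus strand): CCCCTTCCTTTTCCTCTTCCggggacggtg
Rpl14 (chr8:129163605-129163634, plus strand): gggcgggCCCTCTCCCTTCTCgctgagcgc
Rps3 (chr1:163195762-163195791, minus strand): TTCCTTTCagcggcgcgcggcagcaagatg
Rps15 (chr7:10068101-10068130, minus strand): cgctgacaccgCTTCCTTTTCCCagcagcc
Rps24 (chr16:96502-96531, plus strand): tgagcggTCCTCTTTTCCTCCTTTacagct
Rps15a (chr1:181860270-181860299, minus strand): cggcgTTTTCTTTCCacagtcaccatggtg
Rpl26l1 (chr10:17029014-17029043, minus strand): aaatgtcaTTTCCgggcctgcgcacacacc
Rpl7l1 (chr9:21695703-21695732, plus strand): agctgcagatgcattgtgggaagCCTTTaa
Rps4y2 (chr4:183000898-183000927, plus strand): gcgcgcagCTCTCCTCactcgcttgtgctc
Rps27l (chr8:76443643-76443672, plus strand): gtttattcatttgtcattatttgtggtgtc

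Of the 48 members, 41 matched a promoter window of 250 bases before and 50 bases from the start. An uninterrupted run of at least 8 C or T bases, on the gene's strand and within 30 bases of the start on either side, was found in 27 of 35 members that are not paralogs (77.1%) and in 2 of 6 paralogs. The same run was found in 21.0% of 8705 promoters of all genes tested and in 23.2% of all 27457 promoters. It was present in 17 of 24 large subunit genes and 10 of 11 small subunit genes. Rps24, Rpl34 and Rpl14 show long runs across the start, and the paralogs Rpl26l1, Rpl7l1 and Rps27l have no run of 8. Searched on both strands over the whole 300 bases, the letters CCGGAAG were found in 8 of the 35 (22.9%; 18.5% of tested genes and 9.22% of all promoters), and AAGATGG in 8 (22.9%; 8.57% and 7.30%). CTTCCGG, the reverse complement of the first motif, can overlap the end of a pyrimidine run, as it does in Rpl39 and Rpl34. A match describes the letters in the window and does not show that a factor binds there.

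Values are on the log2 scale, and array medians lay between 3.44 and 3.48. All 11 epithelial markers of the list used here passed the filter, 5 with a change above 0 and 0 passing the test. Single changes ran from -0.92 (Cldn7) to 0.92 (Krt14). Control means of these markers ran from 4.58 (Cldn7) to 7.32 (Epcam), and those of the 8 fibroblast markers from 8.47 (Lum) to 12.57 (Fn1). The mean epithelial level relative to the control mean ran from -0.92 to 0.74 on control arrays and from -0.14 to 0.04 on hCG arrays. Several other measures moved with the groups. Endothelial markers (10 of 13 tested, all above 0, 5 passing the test) had mean relative levels of -0.36 to 0.51 in the control group and 1.27 to 1.36 after hCG. Mitosis genes (16 of 16 tested, all above 0, 2 passing) had levels of -0.10 to 0.13 and 0.33 to 1.05. Macrophage markers (6 of 8 tested, 1 above 0, 0 passing limma's test) had levels of -0.09 to 0.18 and -0.96 to -0.53. At an unadjusted limma p under 0.05, 4 of them were lower and 1 was higher. Fibroblast markers (8 of 8, 6 above 0, 1 passing) had levels of -0.02 to 0.01 and 0.21 to 0.39. Of all genes tested, 55.8% lay above 0, and 1.82% passed at a limma adjusted p under 0.05 in either direction. At an unadjusted limma p under 0.05 there were 24.1% in either direction and 14.4% higher. Bacterial poly-A transcripts added before labelling were lower on hCG arrays (5.36 to 5.98 against 6.39 to 6.66), and transcripts added at hybridisation lay at 9.53 to 9.81 on hCG arrays and 9.81 to 10.06 on control arrays. The part of these differences in the results below was not tested. In a mixed culture of this kind, more ribosomal mRNA per cell and more cells of a type rich in it cannot be told apart.

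Nearly all tested members were slightly higher in spheres of hCG-treated rats, by similar amounts, and no single member passed the test over all genes. Of the 45 tested members, 44 had a log2 change above 0, where 55.8% of all genes tested did. The median log2 change was 0.20, a 1.14-fold difference, and the middle of the distribution was narrow, from 0.17 to 0.23 between quartiles. Over all 10424 genes the median was 0.03, with quartiles of -0.11 and 0.17. In 38 of the 45 members the log2 change lay between 0.10 and 0.30.

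At a limma adjusted p under 0.05 (Benjamini-Hochberg), 0 of 45 members passed, against 1.82% of all genes in either direction, 1.01% called higher and 0.815% called lower. With 3 arrays in each group, the members' adjusted p ran from 0.0958 to 0.896. At an unadjusted p under 0.05 there were 20 members, all higher, where 14.4% of all genes were higher at that level. This count was not stable: it was 3 without hCG 5, 3 without hCG 7, 4 without Control 5, 9 without Control 6, 11 without hCG 6 and 34 without Control 7. It was 10 after quantile normalization and 6 after cyclic loess. The share of all genes at that level was not counted in these settings, but the whole set of genes moved as well. At a limma adjusted p under 0.05, 190 genes were called with all arrays, 584 without Control 7 and 338 without hCG 6. In the runs without hCG 5, hCG 7, Control 5 or Control 6, 0 genes were called. All 3 hCG arrays lay above all 3 control arrays in 30 members (66.7%), against 19.3% of all genes, and in 0 members did they lie below, against 12.3%. The members were measured in the same 6 RNA samples, so these counts are not independent observations.

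**Figure D1:**
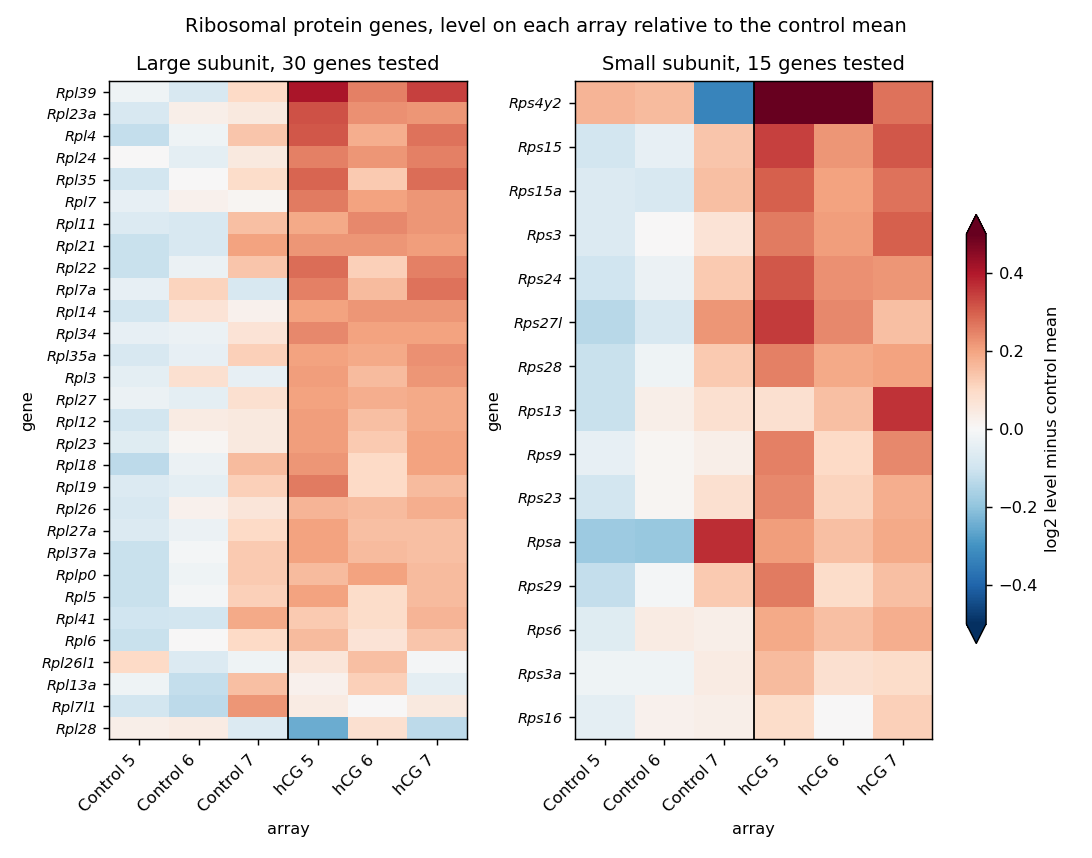
Log2 level of each tested member (rows, large subunit left, small subunit right) on each of the 6 arrays (columns), relative to the gene's mean on the control arrays; colours end at -0.5 and 0.5, and the vertical line parts the groups. Most rows are palest or blue on Control 5 and Control 6, intermediate on Control 7 and red on all hCG arrays; Rps4y2, Rpsa and Rpl28 depart from this.

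Among the 30 large subunit genes tested, 29 lay above 0, with a median of 0.19 and a range of -0.10 to 0.33. Rpl39, which encodes a very small protein of the tunnel through which the new chain leaves, had the smallest p. Its log2 levels were 4.57, 4.51 and 4.69 on Control 5, 6 and 7 and 5.00, 4.84 and 4.93 on hCG 5, 6 and 7, with a change of 0.33 (SE 0.09) and a limma adjusted p of 0.0958. The groups were apart, and this was the 1 member below an adjusted p of 0.10, where 4.79% of all genes were called higher at that level. The Rpl39 probe set was dim for a member, with a mean level of 4.76, while 37 of the 45 tested members had one of at least 10. Rpl23a, whose protein sits at the tunnel exit and is contacted by the signal recognition particle, had levels of 10.76, 10.88 and 10.90 in the control group and 11.17, 11.08 and 11.07 after hCG, a change of 0.26 (SE 0.08, adjusted p = 0.123). Rpl24, which lies at the interface of the subunits and is mutated in the Belly spot and tail mouse, had 10.38, 10.34 and 10.44 against 10.63, 10.60 and 10.64 (0.24, SE 0.07, adjusted p = 0.124). In both genes the groups were apart by more than the spread within either.

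Rpl7, which binds RNA of the large subunit, had 11.04, 11.10 and 11.09 in the control group and 11.34, 11.28 and 11.30 after hCG (0.23, SE 0.07, limma adjusted p = 0.127). Rpl34 (0.21) and Rpl14 (0.21) had adjusted p of 0.157 and 0.168, and their groups were apart as well. For Rpl3 and Rpl4, which reach with long extensions into the catalytic core and the exit tunnel, the changes were 0.20 (SE 0.08) and 0.25 (SE 0.10). Rpl5 and Rpl11 bind the 5S ribosomal RNA as a unit and, when not built into ribosomes, inhibit the p53 ligase Mdm2. Rpl11 had levels of 10.96, 10.96 and 11.19 in the control group and 11.22, 11.28 and 11.26 after hCG (0.22, SE 0.09), so that Control 7 came close to the hCG arrays. Rpl5 overlapped, with 11.56 on Control 7 and 11.54 on hCG 6 (0.15, SE 0.09). A control probe set for the 5S ribosomal RNA had signals of 3.99, 3.86 and 4.69 in the control group and 4.29, 4.28 and 5.21 after hCG, which also overlapped. Whether this signal follows the amount of 5S RNA, in RNA amplified for 3' arrays, was not tested.

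Rplp0, the base of the stalk that recruits translation factors to the large subunit, had a change of 0.17 (SE 0.09), from 10.83, 10.93 and 11.07 to 11.11, 11.14 and 11.11. Rpl22, an RNA-binding protein needed for T cell development, had one of 0.22 (SE 0.10) with overlap of Control 7 (10.87) and hCG 6 (10.85). The lowest changes of the large subunit were those of Rpl28 (-0.10, SE 0.10), Rpl13a (0.03, SE 0.10) and the paralog Rpl7l1 (0.03, SE 0.11), and in all 3 the groups overlapped. The Rpl28 probe set was dim, at 2.97 on control arrays, near the filter, and its change was -0.19 without hCG 6 and -0.03 without hCG 5. The Rpl13a probe set was bright, with 10.95, 10.85 and 11.12 in the control group and 10.93 to 11.09 after hCG. Rpl13a, known also as a silencer of inflammatory mRNAs in macrophages, was thus a bright member whose control and hCG levels did not part.

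The 15 small subunit genes tested all lay above 0, with a median of 0.20 and a range of 0.07 to 0.74. Rps3, which lines the entry of the mRNA channel and also acts in DNA repair, had 10.89, 10.96 and 11.03 in the control group and 11.21, 11.17 and 11.26 after hCG (0.26, SE 0.08, limma adjusted p = 0.122). Rps15, in the head of the subunit near the decoding site, had 10.33, 10.38 and 10.56 against 10.76, 10.64 and 10.73, a change of 0.29 (SE 0.09, adjusted p = 0.130). Rps24, a gene mutated in some families with Diamond-Blackfan anaemia, had 11.13, 11.19 and 11.35 against 11.53, 11.45 and 11.45 (0.25, SE 0.09, adjusted p = 0.154). In each of these genes Control 7 was the highest control array and still lay below the lowest hCG array.

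Rps15a and Rps9 had changes of 0.26 (SE 0.09) and 0.20 (SE 0.08), with the groups apart. Rps6, the subunit protein that S6 kinases phosphorylate downstream of mTORC1, had 11.27, 11.38 and 11.36 in the control group and 11.52, 11.49 and 11.52 after hCG (0.17, SE 0.07, limma adjusted p = 0.215). The lowest changes of the small subunit were those of Rps16 (0.07, SE 0.08), Rps3a (0.11, SE 0.07) and Rps29 (0.17, SE 0.10). Rpsa, a protein of the small subunit that is also known as a laminin receptor, was the bright member with the widest control spread: it had 10.03 and 10.03 on Control 5 and 6 but 10.59 on Control 7, above all hCG arrays (10.42, 10.36 and 10.40). Its change was 0.18 (SE 0.16, adjusted p = 0.529). Without Control 7 it was 0.37 (adjusted p = 0.0441), and Rpsa was then the 1 member of 45 that passed, where 3.34% of all genes were called higher. Without Control 5 or Control 6 its change was 0.09 in both cases (adjusted p = 0.803 and 0.811). The Rpsa probe set used here has the suffix _s_at, which marks probes shared between transcripts. With shared probe sets (_s_at, _x_at and _a_at) left out, Rpsa had a change of 0.22 (limma adjusted p = 0.295).

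**Figure D2:**
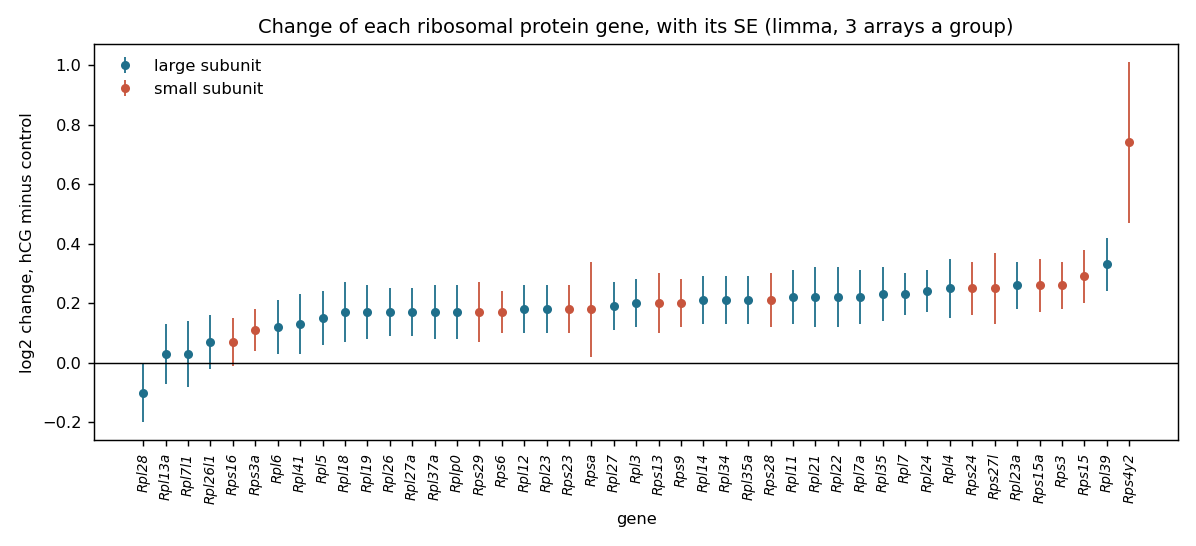
Log2 change (hCG minus control) of each of the 45 tested members in order of size, with its SE from limma as the bar; blue points are large subunit genes and red points small subunit genes. The 2 colours are mixed along the axis, most points lie between 0.10 and 0.30, and Rps4y2 stands alone at 0.74.

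Large and small subunit members had nearly the same median change. The medians were 0.19 over 30 large subunit genes and 0.20 over 15 small subunit genes, and without the paralogs they were 0.19 over 28 and 0.20 over 13. Groups were apart and higher in 20 of 30 large and 10 of 15 small subunit genes, against 19.3% of all genes. Without the paralogs, mean levels of the large subunit relative to the control mean were -0.07, -0.01 and 0.09 on Control 5, 6 and 7 and 0.20, 0.16 and 0.19 on hCG 5, 6 and 7. Those of the small subunit were -0.09, -0.02 and 0.11, then 0.23, 0.14 and 0.22. The large minus small difference was therefore 0.01, 0.01 and -0.02 in the control group and -0.02, 0.02 and -0.03 after hCG, and the groups overlapped. With the paralogs it was 0.01, -0.01 and 0.00 in the control group and -0.11, -0.03 and -0.04 after hCG. All hCG arrays then lay below all control arrays. The small subunit list with paralogs holds Rps4y2, whose level relative to the control mean was 1.28 on hCG 5.

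**Figure D3:**
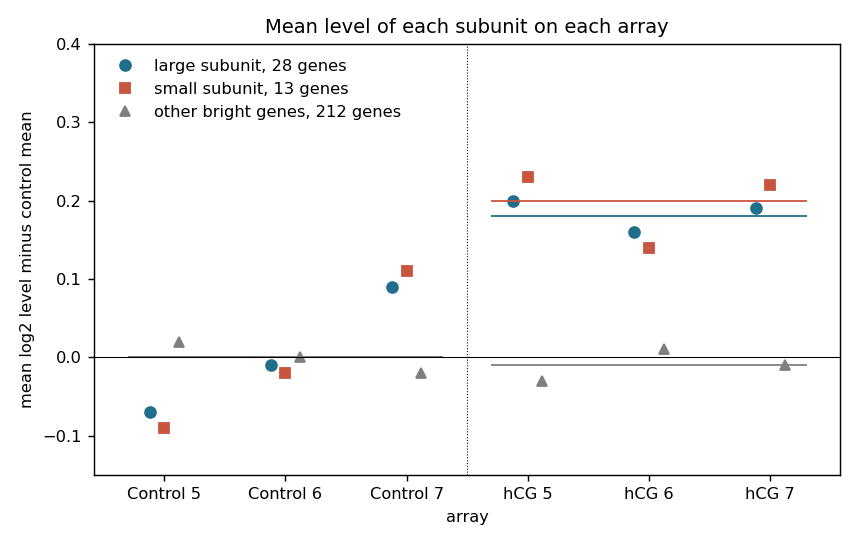
Mean log2 level, relative to the control mean, of 28 large subunit genes (circles) and 13 small subunit genes (squares), both without paralogs, and of 212 other genes with a mean level of at least 10 (triangles), on each array; horizontal lines are group means. Both subunits lie from -0.09 to 0.11 on control arrays and from 0.14 to 0.23 on hCG arrays, while the other bright genes lie between -0.03 and 0.02.

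The arrays had a common order across the members. Control 5 was the lowest of the 6 arrays in 32 of 45 members and Control 6 in 10. Control 7 was the highest control array in 37, and hCG 6 the lowest hCG array in 31. hCG 5 was the highest of all 6 arrays in 27 members. Mean levels over the 45 members were -0.07, -0.02 and 0.09 on control arrays (0.00 ± 0.08, SD, n = 3) and 0.23, 0.16 and 0.19 on hCG arrays (0.20 ± 0.03, SD, n = 3), so the gap between Control 7 and hCG 6 was smaller than that between Control 5 and Control 7. Control 7 also had the highest 3' minus 5' difference of Actb (2.18, against 1.46 to 1.75 on the other arrays) and of Gapdh (0.67, against 0.05 to 0.22). In amplified RNA this difference need not reflect RNA integrity alone, and its part in the ribosomal levels was not tested.

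The members were less variable among hCG arrays than among control arrays. The SD over 3 arrays was smaller in the hCG group in 39 of 45 members (86.7%), against 66.1% of all genes tested, with medians of 0.05 in the hCG group and 0.10 in the control group. For Rpl21 the hCG levels were 10.05, 10.06 and 10.05, while the control levels were 9.72, 9.75 and 10.03. Across the 6 arrays the median correlation between pairs of members was 0.87, and it was 0.70 after each group's mean was removed. These correlations are descriptions over arrays that share amplification and scaling.

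Most members are bright, so they were set beside other bright genes. Of 249 genes with a mean log2 level of at least 10, 37 were members, and all 37 lay above 0, against 63.5% of the 249, with a median of 0.19. The other 212 had a median of 0.02, with quartiles of -0.12 and 0.15, and 121 of them lay above 0. Groups were apart and higher in 27 of the 37 members, against 53 of the other 212 (25%) and 32.1% of all 249 bright genes. The 8 members below that level had a median of 0.21 with a wider range, from -0.10 to 0.74.

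**Figure D4:**
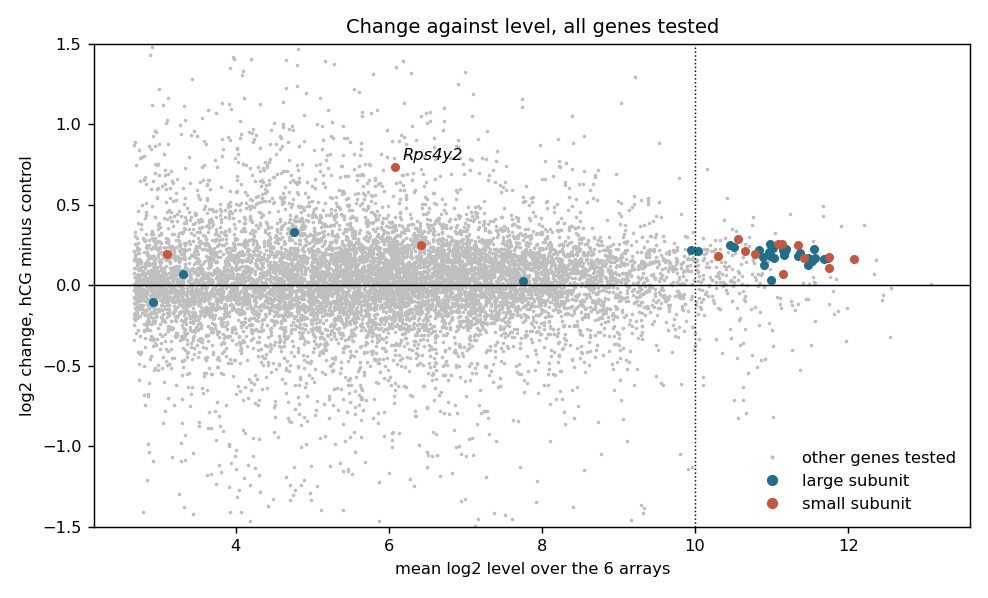
Log2 change (hCG minus control) against the mean log2 level over the 6 arrays for all 10424 genes tested (grey) and for large (blue) and small (red) subunit genes; the dotted line marks a level of 10, and 77 genes beyond a change of 1.5 in either direction are outside the axis. Members cluster at the right, above 0, with Rps4y2 apart at a moderate level.

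Changes of the 4 tested paralogs ran from 0.03 to 0.74. Rps4y2, which by its symbol belongs to the Rps4 family and which GRCr8 places on chromosome 4 despite its name, had the highest change of all members. Its levels were 5.89, 5.87 and 5.39 on Control 5, 6 and 7 and 7.00, 6.38 and 5.98 on hCG 5, 6 and 7, a change of 0.74 (SE 0.27, 1.67-fold, limma adjusted p = 0.162). The groups were apart, but hCG 7 exceeded Control 5 by little, and Control 7, the highest control array in most members, was the lowest here. Without hCG 5 the change was 0.46, and with array weights 0.27. Rps27l, a paralog of Rps27 that p53 induces, had 6.16, 6.22 and 6.52 against 6.65, 6.54 and 6.44 (0.25, SE 0.12), with overlap. Rpl26l1 had a change of 0.07 (SE 0.09) at dim signal. Rpl7l1, a nucleolar relative of Rpl7, had levels of 7.64, 7.61 and 7.96 against 7.78, 7.74 and 7.78, with the highest on Control 7. Rpl39l1 and Rpl3l, a paralog known from muscle, were below the filter on average, with levels over the 6 arrays of 1.37 to 1.74 and 1.34 to 1.51.

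Ribosomal protein genes have many processed pseudogenes, so probes may also bind their transcripts. Probe sets that name several genes of the same ribosomal protein family, not used for the members, covered 25 families. All 25 had a log2 change above 0, with a median of 0.21 and a range of 0.05 to 0.43, and medians of 0.21 for 14 large and 0.21 for 11 small subunit families. Rpl30 and Rps13 had single-gene probe sets at low levels only (control means of 1.52 and 3.01), so their values say little about those genes. Where members had several probe sets, changes were 0.20 and 0.16 for Rpl3, 0.23 and 0.23 for Rpl7, 0.25 and 0.27 for Rps24, and 0.18, 0.22 and 0.10 for Rpsa. For Rpl14 they were 0.21 and 0.06, the latter on a dim probe set (mean level 1.67), and for Rpl7l1 0.03 and 0.08. In each of these 6 genes the probe sets had the same sign.

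Genes that build ribosomes had changes of similar size. Of 62 tested ribosome biogenesis genes 58 lay above 0, with a median of 0.18, and groups were apart and higher in 27 (43.5%, against 19.3% of all genes). By limma 0 passed and 22 were higher at an unadjusted p under 0.05, where 14.4% of all genes were. The share with groups apart and higher was similar in the lists of RNA polymerase I, initiation factors and elongation factors given below. Nop58, a core protein of the box C/D particles that methylate ribosomal RNA, had levels of 7.87, 8.05 and 8.30 in the control group and 8.63, 8.57 and 8.69 after hCG (0.55, SE 0.12, adjusted p = 0.0640). Utp20, of the early small subunit precursor, had 5.89, 5.86 and 6.06 against 6.31, 6.31 and 6.46 (0.42, SE 0.09, adjusted p = 0.0676). Both had their highest control value on Control 7, as most members did. RNA polymerase I genes were divided in sign, with 7 of 14 above 0, a median of 0.07 and 0 passing (5 higher at an unadjusted p under 0.05). Their groups were apart and higher in 6 (42.9%) and lower in 0. Taf1b, a subunit of its promoter factor, differed by 0.40 (SE 0.09, limma adjusted p = 0.0681) and Taf1d by 0.40 (SE 0.13, adjusted p = 0.124).

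Translation factor lists had lower medians than the members. Initiation factors had a median of 0.09, with 24 of 32 above 0 and 0 passing (4 higher at an unadjusted p under 0.05, where 14.4% of all genes were). Their groups were apart and higher in 14 (43.8%, against 19.3% of all genes) and lower in 2. The smallest p were those of Eif3i (0.25, SE 0.08, limma adjusted p = 0.124) and Eif2s2 (0.22, SE 0.07, adjusted p = 0.143). Elongation factors and other mRNAs of the TOP class had a median of 0.14, with 8 of 9 above 0 and 0 passing (2 higher at an unadjusted p under 0.05). Their groups were apart and higher in 4 (44.4%) and lower in 0. Vim, the intermediate filament of mesenchymal and basal cells, had the smallest p of that list (0.37, SE 0.09, adjusted p = 0.0828), followed by the splicing protein Hnrnpa1 (0.35, SE 0.09, adjusted p = 0.0952), and Eef2, which moves the ribosome along the mRNA, had a change of -0.06. Rack1, a ribosomal protein whose symbol lies outside the rule, had one of 0.16 (SE 0.09, adjusted p = 0.323).

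Mitochondrial ribosomal protein genes, whose products form a separate ribosome, had a median of 0.12 over 73 genes, with 62 above 0 and groups apart and higher in 29 (39.7%, against 19.3% of all genes). By limma 0 of them were called higher and 1 was called lower, with 16 of 73 higher (14.4% of all genes were) and 2 lower at an unadjusted p under 0.05. Mrps6, of the mitochondrial small subunit, had levels of 8.71, 8.59 and 8.46 in the control group and 7.64, 7.74 and 7.47 after hCG, so that it fell by 0.97 (SE 0.11, 1.96-fold, limma adjusted p = 0.0294), opposite to the median of its list. Mrps18c had the next smallest p (0.36, SE 0.09, adjusted p = 0.0859).

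Of the 20 tested genes of mTORC1 and the Myc network 1 passed, Myc itself, with 12 above 0 and a median of 0.01. At an unadjusted p under 0.05, 3 were higher (14.4% of all genes were) and 1 lower. Groups were apart and higher in 5 (25%, against 19.3% of all genes) and lower in 2. Myc levels were 6.30, 6.51 and 6.61 on Control 5, 6 and 7 and 7.13, 7.45 and 7.42 on hCG 5, 6 and 7, and it rose by 0.86 (SE 0.13, 1.81-fold, adjusted p = 0.0368). The groups were apart, with hCG 5 the lowest of the hCG arrays. A link between the level of Myc and those of the ribosomal protein genes was not tested. Ddit4, an inhibitor of mTORC1 induced by stress, had a change of -0.49 (SE 0.15, adjusted p = 0.119), with all hCG arrays below all control arrays. Deptor, also an inhibitor of mTORC1, differed in the other direction by 0.48 (SE 0.19, adjusted p = 0.185), and Eif4ebp1, a repressor of translation that mTORC1 inactivates, by 0.30 (SE 0.10, adjusted p = 0.141), with all hCG arrays above all control arrays in both. Mtor, Rptor and Larp1 had changes of -0.04, 0.01 and 0.01. With any 1 of Control 5, Control 6, hCG 5 and hCG 7 left out, 0 of 10424 genes passed, and Myc (adjusted p from 0.0865 to 0.189) and Mrps6 (0.0639 to 0.174) did not pass then; both passed without Control 7 and without hCG 6.

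**Figure D5:**
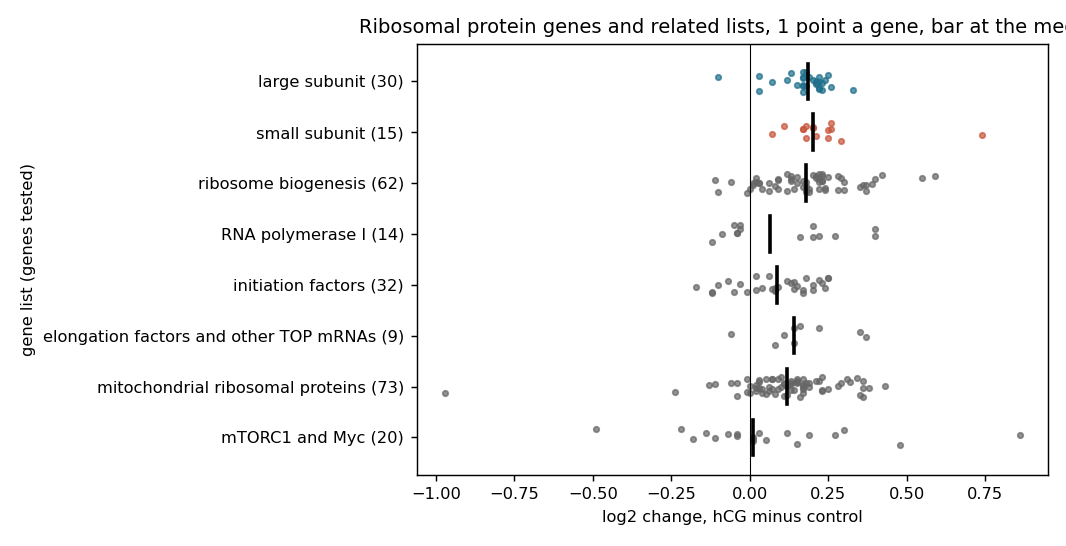
Log2 change (hCG minus control) of each tested gene of the 2 subunits and of 6 related lists, 1 point per gene, spread vertically only for legibility, with a bar at each list's median. Both subunits form narrow clusters near 0.20; ribosome biogenesis genes have a similar median of 0.18 with a wider spread, and Mrps6 (-0.97) and Myc (0.86) lie farthest from 0.

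Scaling changed the size of the ribosomal shift but not the sign of its median. The median of the members was 0.16 after quantile normalization and 0.13 after cyclic loess, with 42 of 45 members above 0 in the latter, and weights for array quality gave 24 of 45 members called higher, against 15.9% of all genes.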

How the data were processed

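Gene expression was measured on 6 arrays, 3 control and 3 hCG, grouped and numbered by sample title. The authors' deposited table holds log2 expression for 31099 probe sets. RMA, MAS5 and limma appear in the submitters' processing notes, without roles or versions. The log base and normalization are taken from the values (0.74 to 13.11, array medians of 3.44 to 3.48). The distributions were not identical, since quantile normalization moved the median change of the members from 0.20 to 0.16. Scaling between arrays hides a change shared by most genes. Nothing states that arrays are separate animals, so a p-value here reflects only how far these samples spread, which may be technical, and the number of arrays limits precision.

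The 57 control probe sets and the dimmest 40% of the rest were left out. The 18625 probe sets left were fitted with limma 3.58.1 (lmFit, eBayes) under R 4.3.3 (hCG minus control, no block, two-sided), tested first on simulated data. P-values were adjusted by Benjamini-Hochberg over 10424 genes, each by its brightest single-gene probe set, which called 190. Symbols were updated by Entrez number (20758 of 20826 probe sets matched). SEs are limma's. Members and lists were chosen with earlier results of these data known; no list was tested. Genes are named by small p and low change within each subunit, by paralogy and by a fixed list; related lists name called genes and the 2 of smallest p, and further genes of them were chosen after their values were seen. So were all members named only for their sequence, level or array pattern, such as Rpl21.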

Additional observations from a re-analysis of the deposited data

How the results depend on the processing

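The median log2 change of the members kept its sign under every alternative run. It was 0.20 as reported, 0.13 after cyclic loess, and 0.16 to 0.23 with each array left out in turn. The count of called members was 0 as reported, 24 with array weights, 1 at an adjusted p under 0.10 (added after seeing the data, Rpl39) and 0 to 1 with each array left out, the 1 being Rpsa without Control 7. The large minus small difference in medians ran from -0.05 (without Control 7) to 0.01 with each array left out. Signs of 2 named members with changes near 0 turned: Rpl13a was -0.03 after cyclic loess, -0.03 without Control 6 and -0.01 without hCG 6, and Rpl7l1 was -0.01 after cyclic loess, -0.02 without Control 5 and -0.03 without Control 6. Without Control 7 the change of Rpl7l1 was 0.14. The cause was not tested. The array number as a replicate block called 118 of 10424 genes, none of them members (7 members at an unadjusted p under 0.05), with a median of 0.20; deviations of same-numbered arrays correlated at -0.16, 0.11 and 0.01, and not every array correlated best with its own number, so the numbers were not taken as pairs. Adjusting over all 18625 probe sets called 177 genes and 0 members. A pseudocount did not apply to log2 values.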
